A study of Mus musculus with 24 samples.

Results

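The transcripts described here come from 42 genes of mitosis, the step in which a cell separates its copied chromosomes and divides. They were listed by name and function among 55414 genes in the count tables, with earlier results of these data known. The list holds the kinases and cyclins of mitotic entry, the machinery of protein destruction, the chromosomal passenger complex, the spindle checkpoint, the kinetochore, the spindle, the midzone and cytokinesis, and chromosome structure. RNA was taken from the spleen of BALB/c mice, whose cells the labels call splenocytes, in 8 RNA-seq libraries. In the study's model, cells of the CT-26 line, a mouse colon carcinoma line, were injected into the right side of mice aged 8 weeks. Titles name 4 libraries control and 4 CT-26, but the treatment field says the reverse: libraries titled control are listed as injected with CT-26 cells, and libraries titled CT-26 as healthy controls. The sets are therefore called titled control and titled CT-26, every difference is titled CT-26 minus titled control, and none is read as an effect of the tumour. No label says whether the libraries of a set came from separate mice, so the p-values measure the spread between these libraries, which may be technical.

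Entry into mitosis is driven by cyclin-dependent kinase 1 bound to A and B cyclins, together with the Polo and Aurora kinases. Chromosomes are compacted by condensin, held on the spindle by kinetochores and released when the anaphase-promoting complex marks the B cyclins and securin for destruction. Most of these genes are transcribed mainly in G2 and M phase and kept silent in resting cells, so their messages mark dividing cells; in the adult mouse spleen these include red cell and granulocyte precursors and activated lymphocytes.

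The libraries held between 735298 and 1970950 counts each. Mitochondrial genes took between 46.2% and 66.1% of the counts of titled control libraries and between 32.0% and 41.1% of those of titled CT-26 libraries, without overlap. With mitochondrial and haemoglobin genes left out before filter and TMM, 37 mitosis genes were tested and 36 rose. With all genes in, 38 were tested and 37 rose. Over all genes, 1355 rose without those genes and 1359 with them. Spleen markers were present: all 6 B cell, all 6 T cell and all 6 red pulp macrophage markers passed the filter on low counts. In bulk RNA, fewer cells of a type and less RNA per cell cannot be told apart.

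Genes of late cell cycle are known to share a pair of promoter elements, and the promoter sequences are shown first because neither the choice of members nor the counts used them. The NF-Y box, CCAAT, is bound by the factor NF-Y, and the cell cycle genes homology region (CHR), TTTGAA, is bound by the MuvB core of the DREAM and MYBL2 complexes. RefSeq promoters on build GRCm38.p6, running from 250 bases before to 50 after the transcript start, were found for 35 of the 42 genes. Each motif was searched on both strands, so that ATTGG also counts as an NF-Y box and TTCAAA as a CHR. The sequences below run 5′ to 3′ on the strand of the gene, from 150 bases before to 30 after the start, with both motifs in capitals. The first 6 hold both, and Nuf2 and Birc5 hold neither. Their places are chr9:70421525-70421704 (minus strand) for Ccnb2, chr4:124936888-124937067 (minus) for Cdca8, chr10:69352883-69353062 (minus) for Cdk1, chr11:40733408-40733587 (minus) for Hmmr, chr2:164769779-164769958 (plus) for Ube2c, chr11:99024160-99024339 (minus) for Top2a, chr1:169531435-169531614 (minus) for Nuf2 and chr11:117849087-117849266 (plus) for Birc5.
Ccnb2: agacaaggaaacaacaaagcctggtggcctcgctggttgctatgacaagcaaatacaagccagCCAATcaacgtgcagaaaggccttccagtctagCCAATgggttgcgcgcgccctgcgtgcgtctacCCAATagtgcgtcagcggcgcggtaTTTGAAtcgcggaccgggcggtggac
Cdca8: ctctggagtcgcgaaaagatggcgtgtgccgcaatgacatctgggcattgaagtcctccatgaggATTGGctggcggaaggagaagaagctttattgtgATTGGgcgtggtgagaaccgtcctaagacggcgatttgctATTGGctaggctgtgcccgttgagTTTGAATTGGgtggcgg
Cdk1: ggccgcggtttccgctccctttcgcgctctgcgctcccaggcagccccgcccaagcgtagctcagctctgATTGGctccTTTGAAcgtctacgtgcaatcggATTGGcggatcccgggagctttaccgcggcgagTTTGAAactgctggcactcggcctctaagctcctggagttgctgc
Hmmr: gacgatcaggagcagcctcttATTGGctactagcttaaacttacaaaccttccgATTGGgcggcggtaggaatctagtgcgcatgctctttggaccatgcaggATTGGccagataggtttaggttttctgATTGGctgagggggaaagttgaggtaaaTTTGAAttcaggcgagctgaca
Ube2c: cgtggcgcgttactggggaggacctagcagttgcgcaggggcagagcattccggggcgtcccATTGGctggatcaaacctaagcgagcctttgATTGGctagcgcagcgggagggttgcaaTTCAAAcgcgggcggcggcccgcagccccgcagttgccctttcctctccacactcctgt
Top2a: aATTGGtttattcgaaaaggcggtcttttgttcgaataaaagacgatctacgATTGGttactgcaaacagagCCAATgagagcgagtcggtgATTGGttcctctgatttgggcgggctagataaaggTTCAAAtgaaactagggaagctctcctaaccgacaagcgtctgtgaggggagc
Nuf2: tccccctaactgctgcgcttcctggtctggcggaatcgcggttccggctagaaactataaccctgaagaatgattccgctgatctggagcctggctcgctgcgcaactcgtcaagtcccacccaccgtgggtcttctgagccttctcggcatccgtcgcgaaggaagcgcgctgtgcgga
Birc5: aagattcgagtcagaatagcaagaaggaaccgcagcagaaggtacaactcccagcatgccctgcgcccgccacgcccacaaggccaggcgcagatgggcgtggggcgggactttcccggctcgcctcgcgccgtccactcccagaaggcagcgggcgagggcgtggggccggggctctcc

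The NF-Y box was present in 28 of the 35 promoters (80%), against 37.9% of the promoters of all 27025 genes in the reference table and 38.9% of those of genes tested for expression. The CHR was also present in 28 of 35 (80%), against 18.1% of all promoters and 12.5% of those of genes tested. Both were present in 25 of 35 (71.4%), against 7.12% of all promoters. Of the genes that rose in the titled CT-26 set and are not members, 14.3% held a CHR and 43.5% an NF-Y box. The CHR was present in 13.6% of 22 S phase promoters and in 50.9% of 57 promoters of other mitosis genes. The NF-Y box was present in 68.2% of the same S phase promoters and 68.4% of those of other mitosis genes. A high share of NF-Y boxes was therefore not particular to the members. For comparison, TTTAAA stood in 25.7% of the members' promoters and 13.2% of all, the TATA box TATAAA in 2.86% and 14.2%, and the GC box GGGCGG in 82.9% and 35.9%, with 66.9% in genes tested. These are matches of letters and say nothing of binding.

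In the printed Ccnb2 promoter the boxes start 87, 54 and 21 bases before the transcript start and a CHR starts 5 bases after it. The CHR and the last NF-Y box of Cdca8 share a base. A look at the sequences led to counts of arrangement, which were therefore chosen after the sequences were seen. A pair of NF-Y boxes on the same strand with starts 30 to 35 bases apart stood in 8 of 35 promoters (22.9%), against 1.26% of all. A CHR starting from 30 bases before to 44 after the transcript start stood in 25 of 35 (71.4%), against 3.79% of all. In the window searched, the promoters of Birc5, Mad2l1, Nuf2 and Nusap1 held neither motif. Only the first listed start of each gene was used, so a motif near another start or outside the window would be missed. Between the library sets, these genes differed by log2 fold changes of 1.19 (Nuf2), 1.88 (Mad2l1), 1.88 (Nusap1) and 3.26 (Birc5). The median of the 38 mitosis genes tested, described next, was 2.31. Whether lack of the motifs goes with the size of change was not tested.

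**Figure D1:**
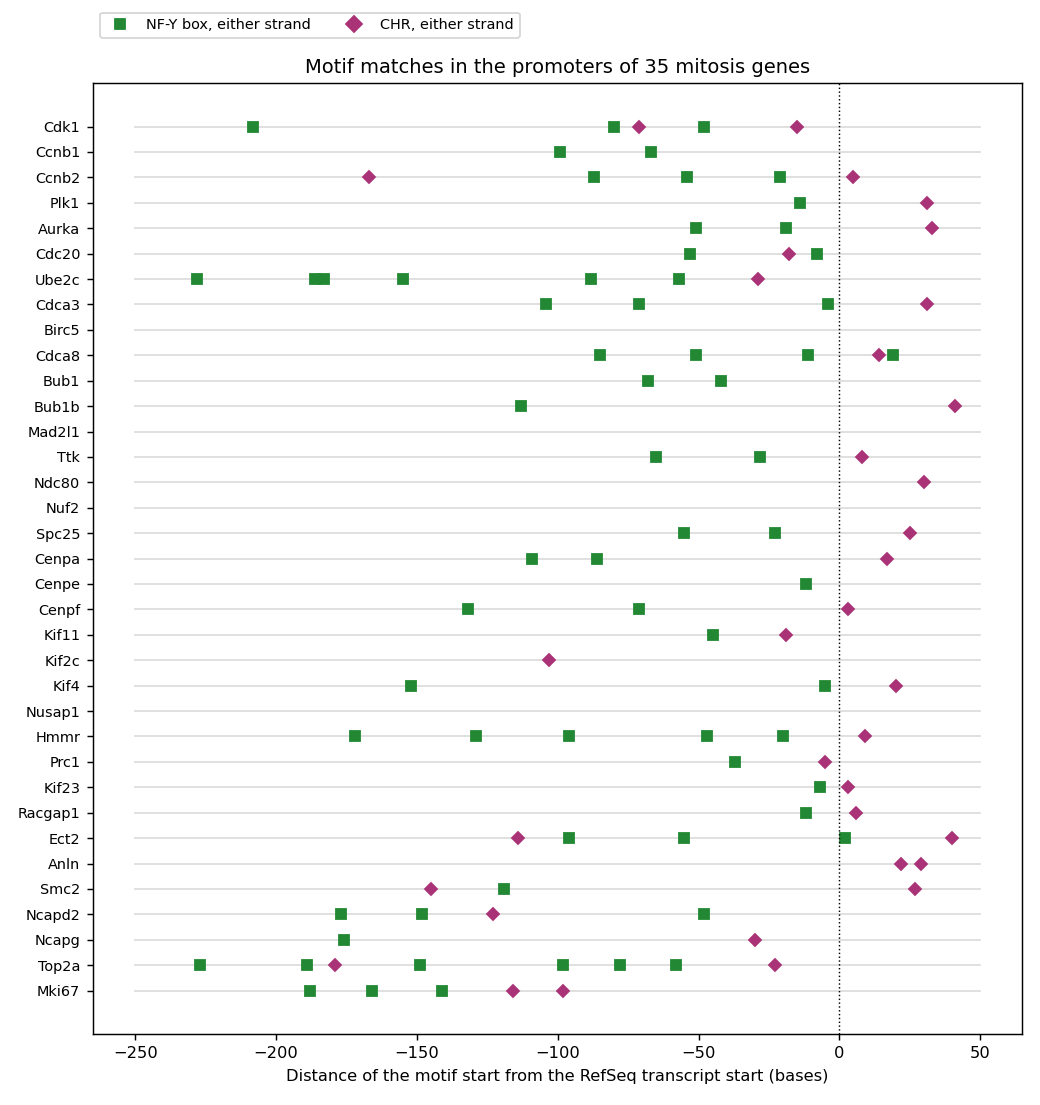
Motif matches in the promoters of 35 mitosis genes: the horizontal axis is the distance in bases of the motif's start from the RefSeq transcript start, green squares are NF-Y boxes and purple diamonds are CHR matches on either strand. Diamonds lie between 30 bases before and 44 after the start in 25 of the 35 promoters, with NF-Y boxes mostly before them, and 4 lines are empty.

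The mitosis genes stood higher in the titled CT-26 set almost without exception. Counts were compared with edgeR's quasi-likelihood test over 6408 genes that passed a filter on low counts, with Benjamini-Hochberg adjustment and a call at an adjusted p under 0.05; levels are given in counts per 1000000 (CPM), scaled by the trimmed mean of M-values (TMM). Of the 42 genes, 38 were tested, 37 rose and none fell, where 21.2% of all genes tested rose, 21.6% fell and 42.8% were called in either direction. The median log2 fold change of the 38 was 2.31, from 0.83 to 3.86, beside -0.02 over all genes tested. Of the 38, 28 rose with a log2 fold change of at least 2, which 5.31% of all genes tested did.

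A gene expressed mainly in one set can pass the filter only through that set, so the genes were also counted without it. With every gene that had a count (18766), 40 of 42 rose, where 8.87% of all genes did, and the median log2 fold change was 2.38 beside -0.24 over all. With a filter on the total count of 40 over the 8 libraries, 40 of 40 genes that passed rose, beside 19.5% of all. In 38 of 42 genes every titled CT-26 library was above every titled control library; this held for 8.16% of all genes with a count and 19.7% of the genes tested. The exceptions were Aurka, Ndc80, Kif2c and Kif20a.

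Summed over all 42 genes, the level was 1640.3, 2226, 1982 and 1697 CPM in titled control replicates 1 to 4 and 7439.5, 10042, 10765 and 8214 CPM in titled CT-26 replicates 1 to 4. The means were 1886 ± 271 and 9115 ± 1549 CPM (SD, n = 4 each), a 4.83-fold difference, and the ranges lie far apart. As a share of all counts, with no scaling, the genes took between 0.105% and 0.214% per titled control library and between 0.820% and 1.18% per titled CT-26 library. Titled CT-26 replicate 1 was the lowest of its set for 24 of the 42 genes and replicate 3 the highest for 21. In the titled control set replicate 1 was lowest for 18 genes and replicate 2 highest for 20.

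**Figure D2:**
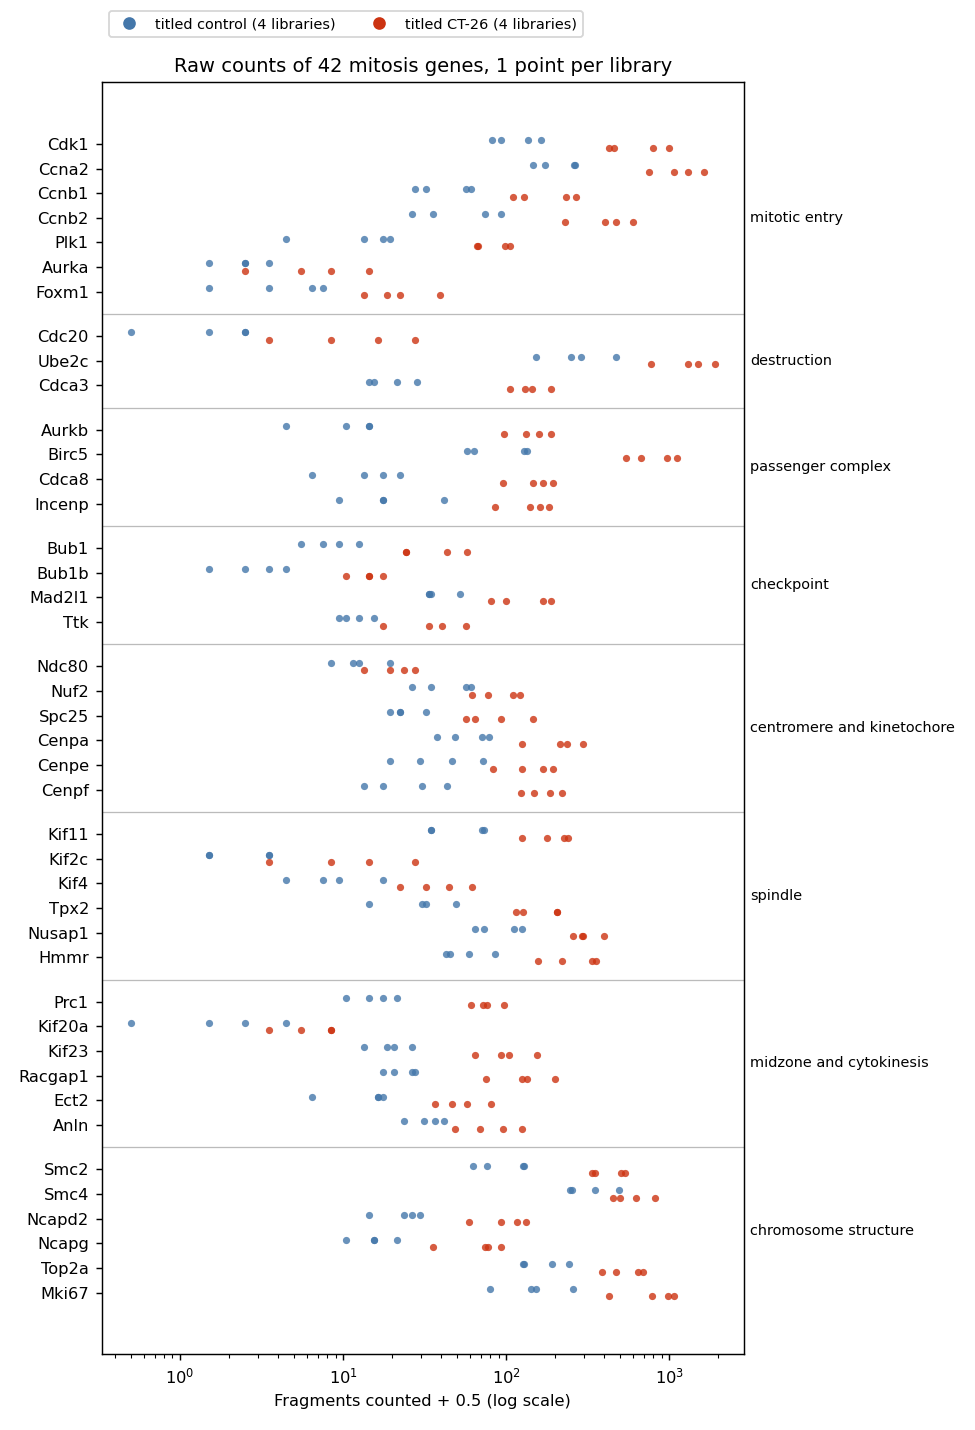
Raw fragment counts of each of the 42 mitosis genes on a log scale (count + 0.5), 1 point per library, grouped by role, blue for titled control and red for titled CT-26. Red points lie to the right of blue points in nearly every row, and Aurka, Cdc20, Kif2c and Kif20a sit at the left with few counts.

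Of the 7 genes of mitotic entry, the 6 tested all rose, with log2 fold changes from 2.19 to 3.06. Their summed level went from 364 ± 49.4 CPM to 2258 ± 461 CPM (SD, n = 4 each). Cyclin A2, encoded by Ccna2 (ENSMUSG00000027715, chr3:36619014-36626299, minus strand, GRCm39), which serves both DNA replication and mitotic entry, had the highest level: 156, 191, 185 and 156 CPM in titled control replicates 1 to 4 and 945, 1206, 1168 and 857 CPM in titled CT-26 replicates 1 to 4. The sets were far apart, with titled CT-26 replicates 2 and 3 above 1 and 4, and the log2 fold change was 2.60 ± 0.22 (SE), edgeR adjusted p = 2.13e-10. Ccnb2 (ENSMUSG00000032218, chr9:70314974-70328829, minus strand), a B cyclin, rose most: it stood at 27.8, 53.6, 37.6 and 55.3 CPM in titled control replicates 1 to 4 and 355, 443, 418 and 261 CPM in titled CT-26 replicates 1 to 4. Titled CT-26 replicate 4 was the lowest of its set and still far above all titled control libraries, and the log2 fold change was 3.06 ± 0.25 (SE), edgeR adjusted p = 1.11e-10. Ccnb1 (ENSMUSG00000041431, chr13:100915158-100923078, minus strand), the B cyclin that is essential for division in mice, rose least, from 35.1 ± 6.12 CPM in the titled control set to 161 ± 48.7 CPM in the titled CT-26 set (SD, n = 4 each). Its values were 28.8, 43.5, 34.4 and 33.7 CPM in titled control replicates 1 to 4 and 114, 198, 207 and 124 CPM in titled CT-26 replicates 1 to 4. None of its libraries overlapped between sets, and the log2 fold change was 2.19 ± 0.24 (SE), edgeR adjusted p = 2.86e-08.

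The kinase Cdk1 itself rose by a log2 fold change of 2.59 ± 0.24 (SE) and Polo-like kinase 1 (Plk1) by 2.77 ± 0.31 (SE). Foxm1, a transcription factor of G2 and M genes, was a low gene that rose by 2.48 ± 0.46 (SE); with the number in the file names, read as a lane, as a term in the fit this became 1.71. Aurka (ENSMUSG00000027496, chr2:172198110-172212455, minus strand), the Aurora kinase of the centrosome, did not reach the filter. It had 3, 1, 2 and 2 counts in titled control replicates 1 to 4 and 8, 14, 2 and 5 in titled CT-26 replicates 1 to 4. Titled CT-26 replicate 3 lay among the titled control libraries, and without the filter the log2 fold change was 1.93 ± 0.71 (SE), edgeR adjusted p = 0.0391.

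Of the 3 genes of mitotic protein destruction, both tested genes rose. Ube2c (ENSMUSG00000001403, chr2:164611818-164620742, plus strand), the ubiquitin-conjugating enzyme that serves the anaphase-promoting complex, had the highest mean CPM over both sets of all 42 genes, though Smc4 was higher in the titled control set, and the smaller change of the pair. It stood at 161, 209, 267 and 283 CPM in titled control replicates 1 to 4 and 1149, 1400.5, 1341 and 877 CPM in titled CT-26 replicates 1 to 4, with no overlap. Its log2 fold change was 2.37 ± 0.23 (SE), edgeR adjusted p = 3.92e-09. Of its exon bases, 22.8% are shared with Tnnc2 on the other strand, which had no counts over the 8 libraries. Other members share over 10% of their exon bases with a gene on the other strand: Kif4 15.1% with Pdzd11 (156 counts), Ncapg 13.4% with Lcorl (215 counts), Ccna2 12.5% with Exosc9 (57 counts) and Prc1 11.1% with Rccd1 (20 counts), besides Kif20a below; these members' counts are uncertain to that extent. Cdca3 (ENSMUSG00000023505, chr6:124806510-124810664, plus strand), which takes part in the destruction of the kinase WEE1, rose from 16.8 ± 6.22 CPM in the titled control set to 125 ± 10.4 CPM in the titled CT-26 set (SD, n = 4 each). Its values were 16, 20.3, 22.6 and 8.42 CPM in titled control replicates 1 to 4 and 115, 138, 128 and 119 CPM in titled CT-26 replicates 1 to 4; the titled CT-26 libraries lay close together and far above the others. Its log2 fold change was 2.93 ± 0.27 (SE), edgeR adjusted p = 7.96e-10. Cdc20 (ENSMUSG00000006398, chr4:118290098-118294549, minus strand), the activator of the complex at anaphase, was below the filter with 0, 2, 2 and 1 counts in titled control replicates 1 to 4 and 16, 27, 3 and 8 in titled CT-26 replicates 1 to 4. All 4 titled CT-26 libraries were above all 4 titled control libraries, titled CT-26 replicate 3 by 1 count. Without the filter the log2 fold change was 3.45 ± 0.66 (SE), edgeR adjusted p = 2.96e-06.

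All 4 genes of the chromosomal passenger complex rose, and the group held the 3 largest changes among the 38 genes tested. This complex corrects wrong attachments of chromosomes to the spindle and later directs cytokinesis. Its summed level went from 112 ± 17 CPM to 1110.0 ± 196 CPM (SD, n = 4 each), 9.91-fold. The kinase of the complex, Aurkb (ENSMUSG00000020897, chr11:68936473-68942490, plus strand), changed most of all tested genes in the list: 4.27, 7.25, 15 and 8.42 CPM in titled control replicates 1 to 4 and 117, 138, 141 and 110.1 CPM in titled CT-26 replicates 1 to 4. Its titled CT-26 libraries differed little from each other while titled control replicate 1 was the lowest of all. The log2 fold change was 3.86 ± 0.29 (SE), edgeR adjusted p = 2.61e-11. Birc5 (ENSMUSG00000017716, chr11:117740077-117746569, plus strand), survivin, which brings the complex to the centromere, was the most abundant of the 4 at 67.3, 96.4, 61.2 and 77 CPM in titled control replicates 1 to 4 and 593, 825, 871 and 614 CPM in titled CT-26 replicates 1 to 4. The gap between its sets was wider than the range within either, and the log2 fold change was 3.26 ± 0.23 (SE), edgeR adjusted p = 1.95e-11. Cdca8, the borealin subunit, rose by 3.49 ± 0.27 (SE) on the log2 scale. The scaffold Incenp (ENSMUSG00000024660, chr19:9849660-9876915, minus strand) rose least in the complex, with 18.2, 12.3, 9.67 and 24.7 CPM in titled control replicates 1 to 4 and 124, 135, 143 and 96.5 CPM in titled CT-26 replicates 1 to 4. Titled control replicate 4 was the highest of its set, still far below the titled CT-26 libraries, and the log2 fold change was 2.90 ± 0.27 (SE), edgeR adjusted p = 1.02e-09.

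The 4 genes of the spindle checkpoint, which holds anaphase until every chromosome is attached, all rose, by log2 fold changes from 1.73 to 2.55. Mad2l1 (ENSMUSG00000029910, chr6:66512374-66524204, plus strand), whose protein blocks the activator CDC20, had the highest level: 35.2, 37.7, 36.5 and 19.8 CPM in titled control replicates 1 to 4 and 88.4, 139, 150.2 and 90.8 CPM in titled CT-26 replicates 1 to 4. Titled control replicate 4 was apart from the other 3 of its set, and no library overlapped between sets. Its log2 fold change was 1.88 ± 0.25 (SE), edgeR adjusted p = 6.83e-07. Bub1b (ENSMUSG00000040084, chr2:118428692-118472072, plus strand), which encodes BUBR1, another inhibitor of CDC20, was low, from 1.98 ± 0.761 CPM in the titled control set to 12.5 ± 3.43 CPM in the titled CT-26 set (SD, n = 4 each). Its values were 1.07, 2.90, 2.15 and 1.80 CPM in titled control replicates 1 to 4 and 15, 10.3, 8.94 and 15.9 CPM in titled CT-26 replicates 1 to 4. It rose most of the 4, by 2.55 ± 0.50 (SE), edgeR adjusted p = 0.000125, and rests on 10 counts in the titled control set. Ttk (ENSMUSG00000038379, chr9:83716742-83754442, plus strand), the checkpoint kinase MPS1, rose least, with 9.61, 7.25, 12.9 and 9.02 CPM in titled control replicates 1 to 4 and 35.4, 41.3, 29.5 and 19.3 CPM in titled CT-26 replicates 1 to 4. Titled CT-26 replicate 4 lay nearest to the titled control libraries without crossing them, and the log2 fold change was 1.73 ± 0.33 (SE), edgeR adjusted p = 8.8e-05. Bub1, the kinase that recruits the checkpoint to kinetochores, rose by 2.20 ± 0.37 (SE).

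At the centromere and kinetochore, the link between chromosome and microtubule, 5 of 6 genes rose. Cenpa (ENSMUSG00000029177, chr5:30824121-30832174, plus strand), the histone H3 variant of centromeres, had the highest level at 51.3, 51.5, 39.7 and 46.9 CPM in titled control replicates 1 to 4 and 189, 219, 212 and 141 CPM in titled CT-26 replicates 1 to 4. The sets did not overlap, and the log2 fold change was 2.0 ± 0.22 (SE), edgeR adjusted p = 2.09e-08. Cenpf (ENSMUSG00000026605, chr1:189372803-189420283, minus strand), a large protein of the outer kinetochore, rose most, with 13.9, 31.2, 32.2 and 10.2 CPM in titled control replicates 1 to 4 and 109, 136, 198 and 168 CPM in titled CT-26 replicates 1 to 4. Titled CT-26 replicate 1, the lowest of its set, was still far above the titled control libraries, and the log2 fold change was 2.82 ± 0.30 (SE), edgeR adjusted p = 5.76e-08. Cenpe, the kinetochore motor, and Spc25, of the NDC80 complex, rose by 1.94 ± 0.28 (SE) and 1.97 ± 0.27 (SE).

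The 2 genes of the NDC80 complex that hold its microtubule-binding end had the smallest changes of the group. Nuf2 rose from 35.4 ± 6.53 CPM in the titled control set to 81.2 ± 15 CPM in the titled CT-26 set (SD, n = 4 each), by 1.19 ± 0.23 (SE), edgeR adjusted p = 0.000131. Ndc80 (ENSMUSG00000024056, chr17:71803095-71833852, minus strand) was the single tested gene that did not pass, with 8.54, 13.8, 12.9 and 6.62 CPM in titled control replicates 1 to 4 and 11.5, 16.9, 24.1 and 21.6 CPM in titled CT-26 replicates 1 to 4. Titled CT-26 replicate 1 lay within the range of the titled control set, and the log2 fold change was 0.83 ± 0.36 (SE) with an edgeR adjusted p of 0.0649. Over 18 alternatives its adjusted p ran from 0.0175 to 0.670, and it passed in 4: 0.0175 without TMM scaling, 0.0451 with the total count filter, 0.0497 without titled control replicate 2 and 0.0262 without titled CT-26 replicate 1.

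Of the 6 spindle genes, the 5 tested all rose. Nusap1 (ENSMUSG00000027306, chr2:119448779-119481725, plus strand), which bundles spindle microtubules near chromosomes, had both the highest level and the smallest change: 68.3, 81.2, 78.4 and 74.6 CPM in titled control replicates 1 to 4 and 227, 294, 264 and 330.4 CPM in titled CT-26 replicates 1 to 4. The titled CT-26 libraries were all above every titled control library, and the log2 fold change was 1.88 ± 0.21 (SE), edgeR adjusted p = 2.48e-08. Tpx2 (ENSMUSG00000027469, chr2:152689884-152737241, plus strand), which activates Aurora A on the spindle, rose most, with 15, 35.5, 34.4 and 18 CPM in titled control replicates 1 to 4 and 102, 150.3, 183 and 143 CPM in titled CT-26 replicates 1 to 4. Titled control replicate 1 was the lowest library, and the log2 fold change was 2.49 ± 0.27 (SE), edgeR adjusted p = 2.3e-08. Kif11, the motor that pushes the spindle poles apart, rose by 2.02 ± 0.23 (SE), the chromokinesin Kif4 by 2.25 ± 0.36 (SE) and Hmmr, a microtubule-binding spindle protein, by 2.30 ± 0.24 (SE). Kif2c (ENSMUSG00000028678, chr4:117016836-117039836, minus strand), a kinesin that takes microtubules apart, was below the filter, with 3, 1, 1 and 3 counts in titled control replicates 1 to 4 and 3, 27, 8 and 14 in titled CT-26 replicates 1 to 4. Its titled CT-26 replicate 1 equalled the highest titled control counts, and without the filter the log2 fold change was 2.79 ± 0.61 (SE), edgeR adjusted p = 6.53e-05.

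Of the 6 genes of the spindle midzone and cytokinesis, the 5 tested all rose. Racgap1 (ENSMUSG00000023015, chr15:99518377-99549537, minus strand), a subunit of the centralspindlin complex that sets the cleavage plane, had the highest mean CPM over both sets and the largest change, though Anln was higher in the titled control set, with 21.4, 19.6, 18.3 and 15.6 CPM in titled control replicates 1 to 4 and 111, 147, 119 and 85.2 CPM in titled CT-26 replicates 1 to 4. The sets were far apart, and the log2 fold change was 2.64 ± 0.25 (SE), edgeR adjusted p = 1.34e-09. Kif23, the motor of the same complex, rose by 2.52 ± 0.25 (SE), the midzone bundler Prc1 by 2.40 ± 0.28 (SE) and Ect2, which switches on RHOA at the cleavage plane, by 2.09 ± 0.31 (SE). Anln (ENSMUSG00000036777, chr9:22243308-22300484, minus strand), anillin, the scaffold of the contractile ring, changed least, with 38.4, 29.7, 24.7 and 18.6 CPM in titled control replicates 1 to 4 and 61, 91.4, 84.9 and 54.5 CPM in titled CT-26 replicates 1 to 4. Titled CT-26 replicate 4 lay nearest to the titled control libraries, and the log2 fold change was 1.41 ± 0.26 (SE), edgeR adjusted p = 6.99e-05. Kif20a (ENSMUSG00000003779), a midzone kinesin, had 0, 4, 2 and 1 counts in titled control replicates 1 to 4 and 3, 8, 5 and 8 in titled CT-26 replicates 1 to 4, which overlap. Without the filter its log2 fold change was 1.92 ± 0.76 (SE), edgeR adjusted p = 0.0622, and 29.3% of its exon bases are shared with Cdc23 on the other strand, from which the counts, taken without regard to strand, cannot be told apart.

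All 6 genes of chromosome structure rose. Mki67 (ENSMUSG00000031004, chr7:135291513-135318090, minus strand), the Ki-67 protein that coats mitotic chromosomes and is used as a stain for dividing cells, had the highest mean level over both sets and the largest change. It stood at 84.4, 186, 151 and 91.4 CPM in titled control replicates 1 to 4 and 378, 726, 960.2 and 891 CPM in titled CT-26 replicates 1 to 4. Titled CT-26 replicate 1 was the lowest of its set and still well above titled control replicate 2, and the log2 fold change was 2.52 ± 0.29 (SE), edgeR adjusted p = 3.4e-07. Smc4 (ENSMUSG00000034349, chr3:68912071-68941956, plus strand), a core ATPase of condensin, was the highest of the group in the titled control set and changed least, with 264, 355, 271 and 209 CPM in titled control replicates 1 to 4 and 398, 463, 731 and 569 CPM in titled CT-26 replicates 1 to 4. Titled control replicate 2 came close to titled CT-26 replicate 1 without crossing it, and the log2 fold change was 0.98 ± 0.23 (SE), edgeR adjusted p = 0.000817. Its partner ATPase Smc2 rose by 2.28 ± 0.22 (SE), and the condensin I subunits Ncapd2 and Ncapg by 2.21 ± 0.25 (SE) and 2.32 ± 0.31 (SE). Top2a, the topoisomerase that untangles sister DNA, rose by 1.78 ± 0.21 (SE).

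**Figure D3:**
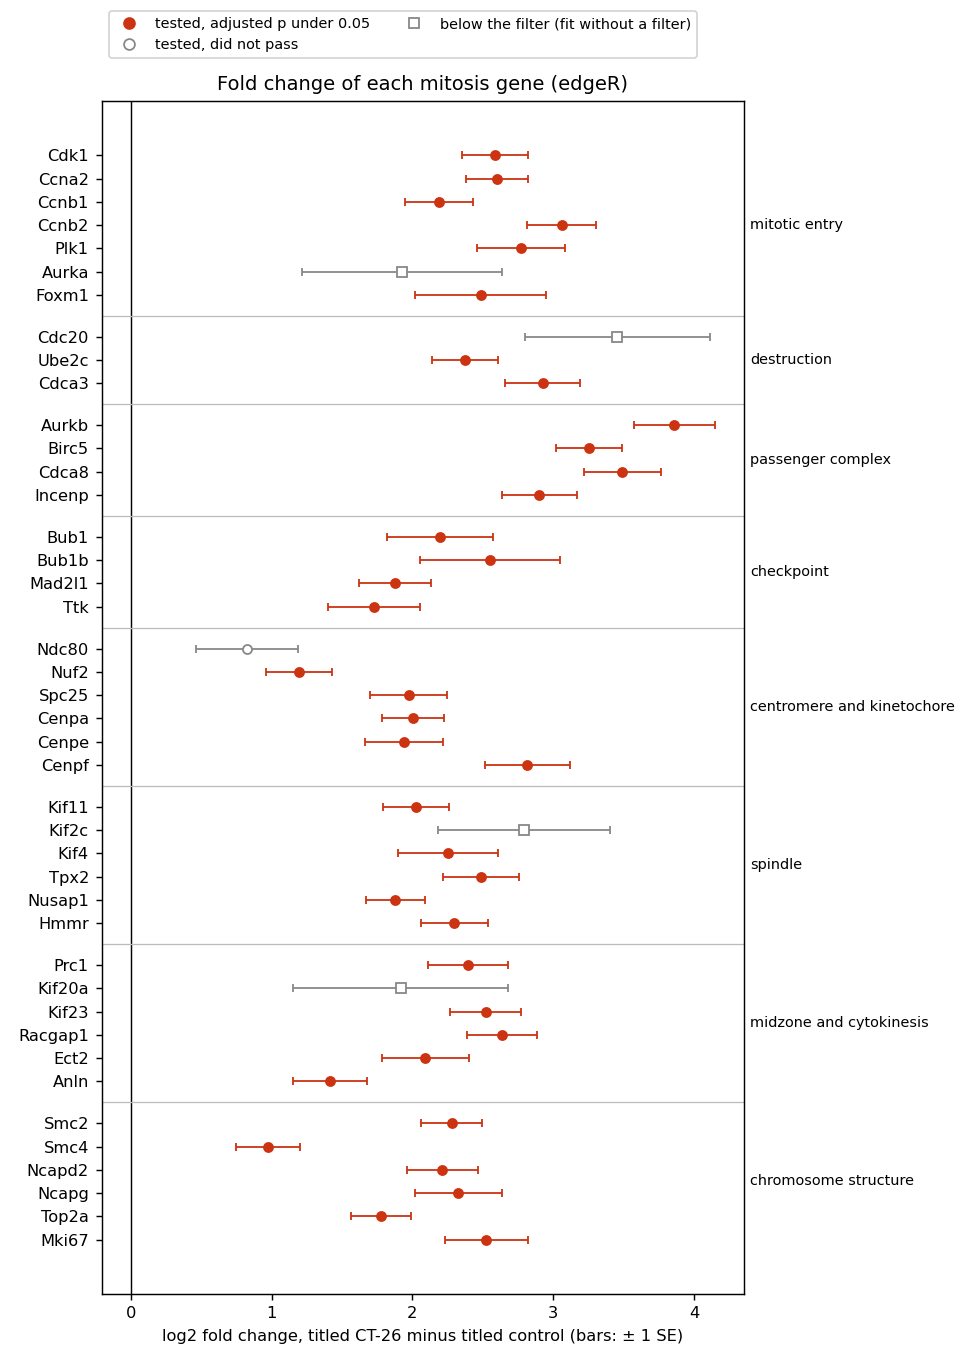
Log2 fold change (titled CT-26 minus titled control) of each of the 42 mitosis genes with bars of 1 SE, grouped by role. Filled red points passed the edgeR test, the open circle is Ndc80, and open squares are the 4 genes below the filter, from the fit without it; all lie right of 0 and Aurkb lies farthest at 3.86.

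The order of levels differed from the order of changes. Divided by the length of the gene's merged exons, which here includes all annotated isoforms, the levels of the titled control set were highest for Ube2c (88.5 CPM per kb), Smc4 (52.7), Ccna2 (42.1), Ccnb2 (28.5) and Birc5 (22.2). In the titled CT-26 set Ube2c stood at 458 CPM per kb, followed by Ccna2 at 256, Ccnb2 at 241, Birc5 at 213, Cdk1 at 118 and Smc4 at 103.7.

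To ask whether partners changed alike, the log2 ratio of counts (+ 0.5) within each library was compared for 10 pairs of genes from the same complex, family or step, which needs no scaling between libraries. An exact two-sided permutation test over the 70 assignments of 8 libraries cannot go below 0.0286, and no pair passed after adjustment over the 10. For Smc4 over Smc2 the ratio was 1.69, 1.93, 2.01 and 1.45 in titled control replicates 1 to 4 and 0.43, 0.31, 0.62 and 0.52 in titled CT-26 replicates 1 to 4, a difference of -1.31 (exact permutation p = 0.0286, adjusted 0.0952). The 2 condensin ATPases thus stood nearer to each other in the titled CT-26 set, with no overlap. For Ccnb2 over Ccnb1 it was -0.05, 0.30, 0.13 and 0.71 against 1.63, 1.16, 1.01 and 1.07, a difference of 0.95 (exact permutation p = 0.0286, adjusted 0.0952). For Aurkb over Aurka it was 0.36, 2.81, 2.54 and 2.54 against 3.96, 3.69, 5.99 and 4.15, a difference of 2.39 (exact permutation p = 0.0286, adjusted 0.0952), with few Aurka counts behind it. These 3 pairs were the ones whose sets did not overlap.

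Mki67 over Top2a differed by 0.73 (exact permutation p = 0.0857, adjusted 0.214), and Nuf2 over Ndc80 by 0.38 (exact permutation p = 0.171, adjusted 0.343). Differences of the other 5 pairs were 0.28 for Birc5 over Incenp, 0.27 for Bub1b over Bub1, 0.03 for Ncapg over Ncapd2, -0.11 for Kif23 over Racgap1 and -0.59 for Ube2c over Cdc20, with adjusted exact permutation p-values from 0.536 to 0.886. In all 7 of these pairs the sets overlapped. The Ube2c over Cdc20 difference rests on few Cdc20 counts: it was -1.20 without titled CT-26 replicate 3, -1.33 with a pseudocount of 0.1 and -0.19 with a pseudocount of 1.

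**Figure D4:**
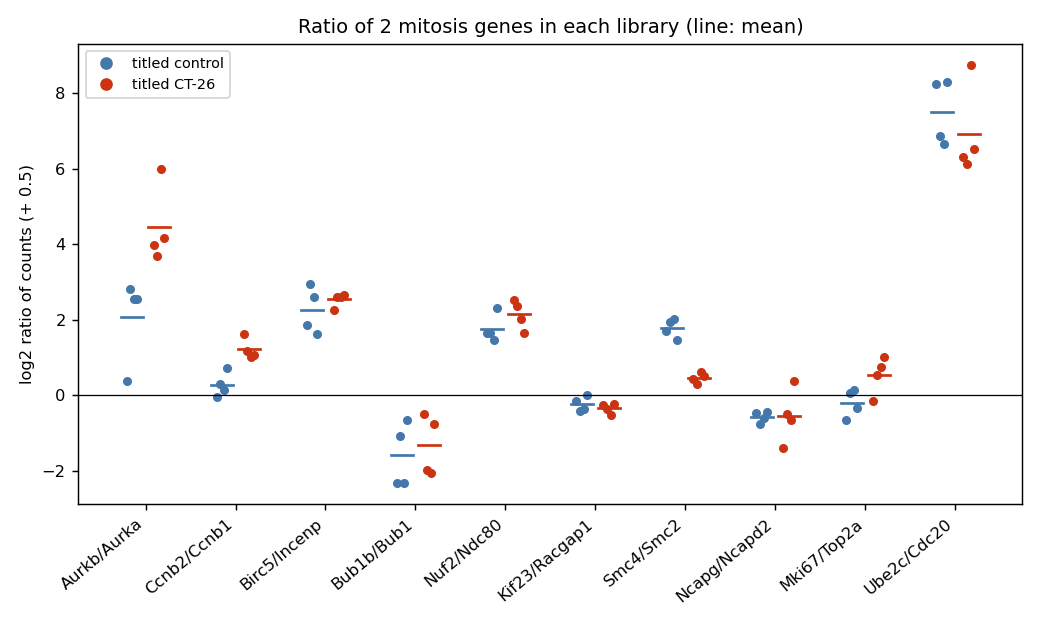
Log2 ratio of counts (+ 0.5) of 10 pairs of mitosis genes in each library, blue for titled control and red for titled CT-26, with a line at each set's mean. The colours separate for Aurkb/Aurka, Ccnb2/Ccnb1 and Smc4/Smc2 and overlap in the other 7 pairs.

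Of 71 further mitosis genes, 56 were tested, 54 rose and none fell, with a median log2 fold change of 2.27; their summed level differed 3.91-fold between the sets, beside 4.83-fold for the 42. Those of smallest p were Tacc3, a spindle protein (3.41), the condensin subunit Ncaph (2.74) and Ckap2, a microtubule protein (2.83), and those that did not pass were Cdkn3 (1.0) and Zwint (0.22). Of 15 genes of the anaphase-promoting complex, whose subunits are present through the cell cycle, 11 were tested, 3 rose and 1 fell, beside 21.2% and 21.6% of all genes tested, so these counts are no result about the complex. The median was 0.13. Those that rose were Fzr1, its activator in G1 (2.31), Cdc27 (1.45) and Cdc23 (1.19, with the overlap named above). Anapc11 (-0.92) was lower, a call that 14 of 18 alternatives did not make, among them leaving out titled control replicate 1, titled control replicate 2, titled control replicate 4, titled CT-26 replicate 1, titled CT-26 replicate 2 or titled CT-26 replicate 4 (edgeR log2 fold changes from -1.72 to -0.27 over the 18). Of 10 cohesin genes, which hold sister chromatids together, 9 were tested, 4 rose (among them Wapl at 1.59, Rad21 at 1.49 and Smc3 at 1.06) and none fell, with a median of 0.36.

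Beside the counts in the lists that follow, 21.2% of all genes tested rose and 21.6% fell. Of 11 genes of the DREAM and MYBL2 complexes, 9 were tested and 5 rose, with a median of 0.89. Among those that rose were Tfdp2 at 2.59, Rbl1 at 1.89 and Mybl2, the activator of G2 and M genes, at 4.21 ± 0.59 (SE). The change of Mybl2 rests on 2, 0, 2 and 1 counts in titled control replicates 1 to 4. It had 16, 39, 34 and 8 counts in titled CT-26 replicates 1 to 4. Without the filter 5 of the 11 rose and 1 fell, where 1664 of all 18766 genes rose and 1720 fell. The NF-Y subunits did not pass: Nfya -0.47, Nfyb 0.44 and Nfyc 0.42. Of 28 S phase genes 23 were tested and 20 rose, by a median of 1.57, with the smallest p for Tk1 (2.76), Rrm2 (2.49) and Mcm6 (2.32). Of 18 genes of G1 and cell cycle inhibitors 14 were tested, 10 rose and 1 fell, and without the filter 10 rose and 2 fell. Those of smallest p were E2f2 at 3.66, the inhibitor Cdkn1a (p21) at 4.01 ± 0.49 (SE) and the G1 cyclin Ccnd2 at -1.88. Cdkn1a had few counts in the titled control set: 0, 5, 1 and 2 in replicates 1 to 4, against 44, 27, 32 and 20 in titled CT-26 replicates 1 to 4.

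The summed level of the 42 genes over that of the S phase genes was 2.47, 3.48, 3.40 and 2.51 in titled control replicates 1 to 4 and 5.11, 3.97, 5.20 and 4.71 in titled CT-26 replicates 1 to 4. All titled CT-26 libraries were higher, replicate 2 by the least. Over the other mitosis genes the ratio was 1.76, 1.92, 1.90 and 1.78 against 2.34, 2.17, 2.38 and 2.24, also without overlap. Members and lists were chosen with earlier results of these data known, and the part of that choice in these ratios was not tested.

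Of the cell types that divide in the spleen, markers of red cell and neutrophil precursors moved with the mitosis genes. Their part in the result was not tested. Beside the counts below, 21.2% of all genes tested rose, and 8.87% of all genes without the filter. All 14 erythroid precursor markers rose, with a median log2 fold change of 2.04, a summed level of between 988 and 1206 CPM over the titled control libraries and between 3488 and 6647 CPM over the titled CT-26 libraries, none at 0, and the smallest p for Slc4a1 (3.44), Rhag (2.53) and Ermap (2.76). The summed level of the 42 mitosis genes over the sum of these markers was 1.66, 1.91, 1.72 and 1.41 in titled control replicates 1 to 4 and 2.13, 1.65, 1.62 and 1.54 in titled CT-26 replicates 1 to 4, which overlap. Of 11 neutrophil precursor markers 8 were tested and all 8 rose (10 of 11 without the filter), by a median of 3.72, with a summed level of between 189 and 369.5 CPM over the titled control libraries and between 1538 and 4140.1 CPM over the titled CT-26 libraries and Prtn3 (4.71), Mpo (5.24) and Ngp (3.38) of smallest p. The mitosis genes over these markers stood at 8.68, 6.90, 5.36 and 7.84 against 4.84, 3.14, 2.60 and 2.54, lower in every titled CT-26 library. Most of the marker sum was Ngp, at a mean of 236 of 274 CPM in the titled control set and 2452 of 3028 CPM in the titled CT-26 set. The ratio is therefore mainly one to Ngp.

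Few markers of other types that can divide reached the filter. Of 8 germinal centre markers 1 was tested and did not pass (Neil1, 0.28), Rgs13 was at 0 in the titled CT-26 set, and the summed level was between 37.9 and 43.8 CPM over the titled control libraries and between 25 and 42.4 CPM over the titled CT-26 libraries. Of 7 plasmablast markers 3 were tested, Jchain fell (-0.54), Irf4 (-0.62) and Xbp1 (-0.08) did not pass, Mzb1 was at 0 in all libraries, and the summed level was between 679 and 929 CPM over the titled control libraries and between 457 and 653 CPM over the titled CT-26 libraries. Of 8 progenitor markers 2 were tested, Kit rose (1.06) and Myb did not pass (0.61), with a summed level of between 41.5 and 55.9 CPM over the titled control libraries and between 53.1 and 92 CPM over the titled CT-26 libraries. The call of Kit was not made in 5 of 18 alternatives, among them leaving out titled control replicate 2 or titled CT-26 replicate 2 or 4, and that of Jchain in 11, among them leaving out titled control replicate 1 or 3 or titled CT-26 replicate 2, 3 or 4. Over the 18 alternatives the log2 fold change ran from 0.20 to 1.67 for Kit and from -0.62 to -0.15 for Jchain. Of 6 megakaryocyte markers 2 were tested and did not pass, Pf4 (1.11) and Ppbp (1.13), Gp9 and Gp1bb were at 0 in the titled control set, and the summed level was between 10.1 and 76.4 CPM over the titled control libraries and between 21.2 and 145 CPM over the titled CT-26 libraries. Without the filter, edgeR called Cd34 and Kit higher and Meis1 lower among the progenitor markers. Their part in the result was not tested either. Markers of the resident types fell, where 21.6% of all genes tested did: 5 of 6 for B cells (median -1.96, smallest p for Ms4a1 at -3.93, Cd22 at -2.29 and Cd79b at -2.02), 6 of 6 for T cells (-1.67, Cd3g -2.56, Cd8a -3.60, Cd247 -1.89) and 4 of 6 for red pulp macrophages (-1.94, Slc40a1 -2.67, Spic -3.31, Hmox1 -2.11).

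**Figure D5:**
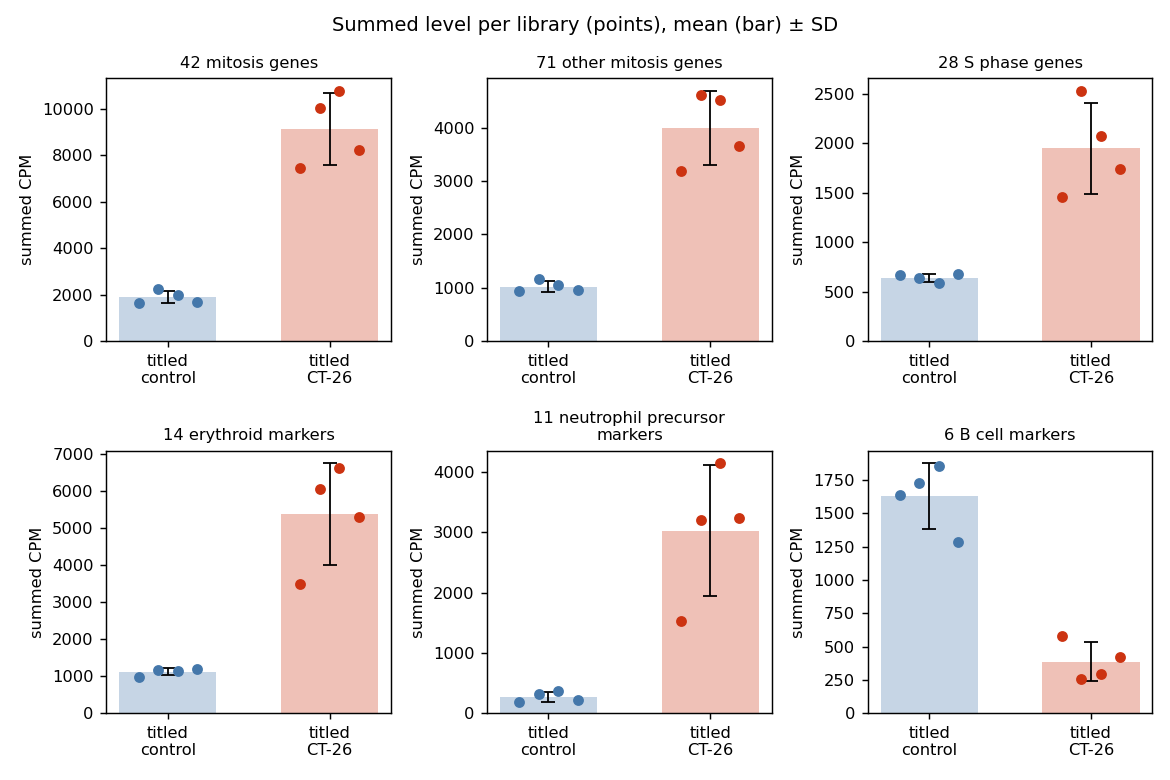
Summed CPM per library (points) with the mean (bar) and SD, for the 42 mitosis genes and 5 related lists, blue for titled control and red for titled CT-26. The mitosis genes sit at 1640 to 2226 CPM against 7440 to 10765 CPM; erythroid and neutrophil precursor markers are also higher in titled CT-26, and B cell markers lower.

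File names carry a number that is read here as a lane, which no label explains, and numbers 1 and 2 each hold libraries of both sets. Within lane 1, over 1 titled control and 2 titled CT-26 libraries, the log2 fold changes of 41 genes ran from 0.57 to 3.95 with a median of 2.21; within lane 2, over 2 titled control and 1 titled CT-26, those of 39 genes ran from 0.67 to 4.95 with a median of 2.31. Every gene fitted was higher in titled CT-26 in both. A lone library in these fits is assumed to vary like the others.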

How the data were processed

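RNA-seq counts of 8 spleen libraries (4 titled control, 4 titled CT-26) were used; T and B cell receptor files of the same series were not used here. Per the file headers, the authors counted whole fragments per gene with featureCounts 2.0.1 in paired mode over GENCODE M29 exons (GRCm39), without strand; the deposited counts are raw. STAR 2.7.10a and Trimmomatic 0.39, with builds GRCm39 and GRCm38, are listed in the submitters' processing notes. Libraries were grouped by title. Of 55414 genes, 52081 matched a symbol. Counts were tested with edgeR 4.0.16 (R 4.3.3; filterByExpr, TMM, robust quasi-likelihood fit, Benjamini-Hochberg over all genes tested, adjusted p under 0.05), tested on simulated data. Pairs of genes were compared by an exact permutation test, with a pseudocount of 0.5 and adjustment over 10 pairs. Alternatives were DESeq2 1.42.0, no TMM, other size factors, TMM without mitochondrial and haemoglobin genes, other filters, a replicate block, the number in the file names (read as a lane) as a term or alone, pseudocounts, and leaving out each library. Per-library values are given for the gene of highest level and of largest and smallest change in each role group. They are also given for genes not called, and as counts for Mybl2 and Cdkn1a. From other lists, the 3 genes of smallest p and called genes that moved against the list are named. Members and lists were chosen with earlier results of these data known. No libraries of a set were duplicates (lowest chi-square per degree of freedom 3.70). Low depth limits genes under the filter: 3 counts equal 1.80 to 3.41 CPM. Motifs were searched in 1 RefSeq promoter a gene, the first listed. Calls made without the filter among germinal centre and megakaryocyte markers are not reported here.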

Additional observations from a re-analysis of the deposited data

Results flagged for a closer look

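Mad2l1 stood at 19.8 CPM in titled control replicate 4, against 35.2, 37.7 and 36.5 CPM in the other 3 titled control libraries, a gap above Dixon's 95% limit for 4 samples. It was 1 such value among 84 groups looked at (42 genes in 2 sets), and chance marks about 1 group in 20. Without that library the log2 fold change of Mad2l1 was 1.69, beside 1.88 with it.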

How the results depend on the processing

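Of the 42 genes, 41 had values under an alternative, 694 in all: 1 for Aurka, 2 for Kif2c, 8 for Cdc20, 17 for Bub1b, 18 for each other and none for Kif20a. The fit without the filter is counted for the 38 tested genes only. For Aurka, Cdc20, Kif2c and Kif20a it gave the values printed above and is not in this tally. Of the 694, 679 kept their direction and side of the threshold, 11 kept direction but missed the threshold (all in single lanes), 4 passed newly (all Ndc80) and 0 reversed. Foxm1 was the single tested gene whose fold change, taken off the log2 scale, moved by over 1.5 times outside single lanes. Its log2 fold change was 1.71 with lane as a term, beside 2.48. Over all genes, 1359 were higher and 1381 lower; without TMM 1936 and 725, a shift of all log2 fold changes by 0.37, with the summed level of the 42 genes differing by 2.61 on the log2 scale. In lane 1 alone 865 were higher and 758 lower, in lane 2 alone 468 and 427. Leaving out a library, the log2 ratio differences ran from -0.27 to 0.32 for Ncapg over Ncapd2 and from -0.0048 to 0.59 for Bub1b over Bub1, reversing at their lower ends. In promoters cut to 100 bases before the start, the TATA box share of the members was 0% and the GC box share 57.1%. No label says whether the replicate numbers pair the libraries. Correlations of same-numbered libraries' deviations ran from -0.0914 to 0.0764, and those of differently numbered libraries from -0.0922 to 0.120. The same-numbered ones thus did not stand apart, which cannot exclude pairing. With the number as a replicate block, 1340 genes were higher and 1328 lower, and 37 of 38 members rose. The pairs' mean differences are the same with the block by arithmetic, so they do not test it. Their p-values then came from an exact sign-flip test, which swaps the sets within a number. For Smc4 over Smc2, Ccnb2 over Ccnb1 and Aurkb over Aurka its adjusted p was 0.3125, beside 0.0952 in the permutation test. With so few blocks the sign-flip test cannot pass. The low depth limits Aurka, Cdc20, Kif2c and Kif20a.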
